A study of Mus musculus with 14 samples.

Results

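Open chromatin 2.5 to 5 kb upstream of gene starts was examined in mouse erythro-myeloid progenitors with and without Ezh2. The regions came from the authors' lists of differences between groups in ATAC-seq, an assay in which the Tn5 transposase cuts accessible DNA. In each comparison the members were the regions that were paired with a single gene, lay upstream of its start at a distance of 2500 bp or more, and were at most 2899 bp wide, the limit being just under 3 kb. This left 2287 of 9954 regions, counted separately in each comparison, and they were paired with 1806 genes. The members were chosen by the authors' calls, that is by their fold changes and adjusted p-values in the same comparisons, and by distance and width. The fold changes and directions below are therefore a description and were not tested.

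The cells were sorted from E10.5 yolk sac of C57BL/6 mice, with 500 cells in each of 14 samples. All embryos were homozygous for a floxed Ezh2 allele (Ezh2fl/fl), so the deletion depended on Cre. The 5 Tie2 KO samples carried Tie2-CreTg/+, the 3 Tie2 WT samples were Tie2-Cre+/+ without the transgene, and the 3 Vav KO samples carried Vav-CreTg/+. The 3 Vav WT samples (Vav-Cre+/+) enter none of the lists used here. The Tie2 promoter is active in endothelium and in the blood cells that arise from it, and the Vav1 promoter in blood cells, so the drivers differ in where and when they can act. Vav KO was set against a control of the other Cre line, so the Cre line and the loss of Ezh2 cannot be told apart there. Whether embryos were pooled was not given in the sources used here.

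Ezh2 is the methyltransferase of the Polycomb complex PRC2 and places the H3K27me3 mark that helps to keep developmental genes silent. Erythro-myeloid progenitors arise from haemogenic endothelium of the yolk sac and give rise to red cells, megakaryocytes, mast cells and macrophages of the embryo. DNA a few kilobases upstream of a gene lies outside its core promoter and can hold enhancers, but it can equally belong to a neighbouring gene. Pairing by distance alone does not show which gene a region acts on.

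Of the 2287 members, 1218 (53.3%) overlapped the body of another RefSeq gene and 1026 (44.9%) lay wholly inside one. For the 3794 upstream regions nearer than 2.5 kb the shares were 44.2% and 36.3%. In 32 members (1.4%) the region covered the start of a gene other than its partner. The start of Otx2, a homeobox regulator of the forebrain, lay in the region paired with the opposite-strand RNA gene Otx2os1, which was higher in Tie2 KO than in Vav KO, with 0.91 as log2 fold change in the authors' deposited table. The start of the interleukin gene Il11 lay in the regions paired with Tmem190, which were higher in Tie2 KO at 0.74 against Tie2 WT and 0.76 against Vav KO in the authors' deposited table. In 4 members the region covered another RefSeq start of its own partner, among them the regions of Nyx on the X chromosome, at 1.24 in Vav KO against Tie2 WT and -1.64 in Tie2 KO against Vav KO in the authors' deposited table.

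The 250 bases before these starts are given as examples of DNA that the pairing credits to a gene 2.5 kb or more away, or to a second start of the same gene. They are from RefSeq on GRCm38.p6, 5′ to 3′ on the strand of the gene, with each CG pair in capitals. Otx2 lies at chr14:48665110-48665359 (minus strand), Il11 at chr7:4778142-4778391 (minus strand) and Nyx at chrX:13460840-13461089 (plus strand).
Otx2: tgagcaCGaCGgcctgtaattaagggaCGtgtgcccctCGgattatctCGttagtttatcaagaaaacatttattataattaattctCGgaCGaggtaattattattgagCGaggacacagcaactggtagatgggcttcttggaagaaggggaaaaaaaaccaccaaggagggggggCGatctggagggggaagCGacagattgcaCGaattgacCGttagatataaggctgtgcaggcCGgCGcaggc
Il11: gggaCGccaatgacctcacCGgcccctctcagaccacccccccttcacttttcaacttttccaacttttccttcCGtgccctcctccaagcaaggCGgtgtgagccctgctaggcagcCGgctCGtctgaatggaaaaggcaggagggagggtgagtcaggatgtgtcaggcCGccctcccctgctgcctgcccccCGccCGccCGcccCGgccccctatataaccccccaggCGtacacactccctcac
Nyx: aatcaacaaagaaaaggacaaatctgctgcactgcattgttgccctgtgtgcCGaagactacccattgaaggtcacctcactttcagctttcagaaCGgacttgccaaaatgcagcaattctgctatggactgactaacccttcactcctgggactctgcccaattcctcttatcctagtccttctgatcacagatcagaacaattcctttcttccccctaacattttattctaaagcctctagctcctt
The stretch before Otx2 held 14 CG pairs and that before Il11 held 12, against 2 before Nyx and a median of 10 over 21262 RefSeq promoters of the same length. The letters AGATAA, searched on both strands, were found in the Otx2 stretch and in 8.81% of the 21262 promoters.

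Members also lay upstream of 82 microRNA genes, of which 72 matched a mature sequence in the RefSeq table. Shown are 7 picked after their values were seen, as the ones described by name further on and not as those with the largest fold changes, with the seed (bases 2 to 8) in capitals.
mmu-miR-9-5p: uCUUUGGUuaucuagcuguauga
mmu-miR-7661-5p: aAGAAAGAaaccuggaguuuaaagu
mmu-miR-196b-5p: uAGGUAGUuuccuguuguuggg
mmu-miR-193b-3p: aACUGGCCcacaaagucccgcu
mmu-miR-129-5p: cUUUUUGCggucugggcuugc
mmu-miR-21a-5p: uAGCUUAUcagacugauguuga
mmu-let-7g-5p: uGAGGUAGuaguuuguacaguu
Among the matched genes, Mir9-2 and Mir9-3 alone shared seeds with each other, because they encode the same mature arms.

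In Tie2 KO against Tie2 WT, 598 regions lay 2.5 to 5 kb upstream, near 589 genes, of which 406 were higher and 192 lower in the authors' deposited tables. The higher share was 67.9% (exact 95% binomial interval 64.0% to 71.6%), beside 82.7% higher and 17.3% lower over all 3578 regions of the comparison. Vav KO against Tie2 WT had 641 members near 637 genes, 460 higher and 181 lower. Here the higher share was 71.8% (68.1% to 75.2%), beside 67.6% higher and 32.4% lower over all 1943 regions. Tie2 KO against Vav KO had 1048 members near 1033 genes, 442 higher and 606 lower. The higher share was 42.2% (39.2% to 45.2%), beside 64.8% higher and 35.2% lower over all 4433 regions. Most members were thus more open in each knockout than in Tie2 WT, as were most regions of the whole lists. Relative to the whole list, the higher share of members was lower in Tie2 KO against Tie2 WT and slightly larger in Vav KO against Tie2 WT. In Tie2 KO relative to Vav KO more members were less open than more open, unlike the whole list. The intervals cover counting error over regions and not the spread between embryos.

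**Figure D1:**
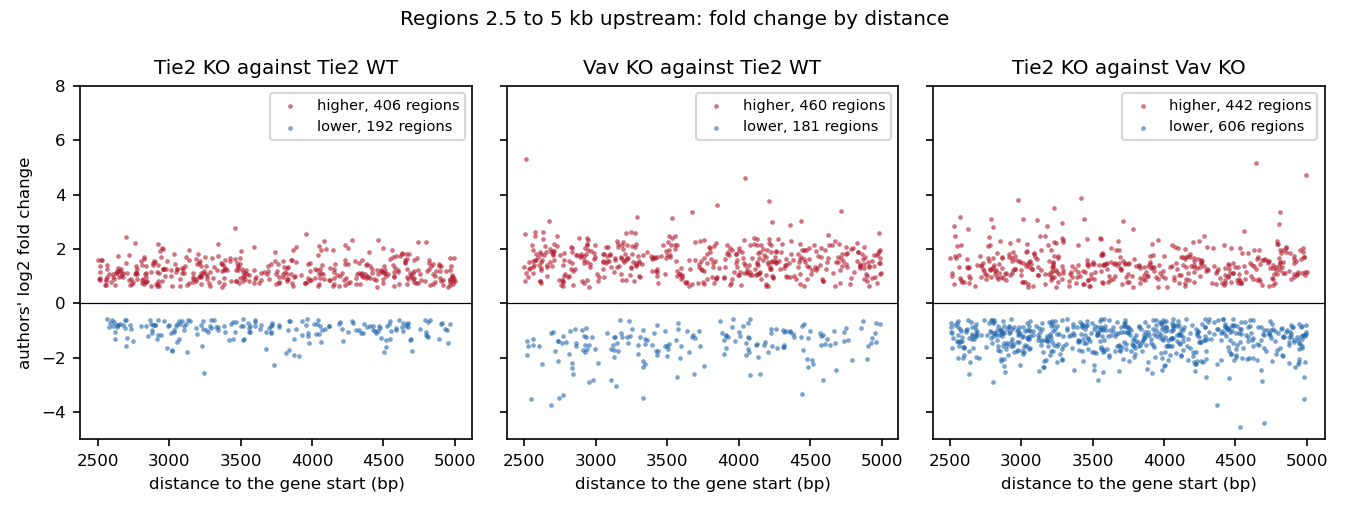
Each point is 1 region, placed by bp to the gene start and by the authors' log2 fold change, with higher regions in red and lower ones in blue, for the 3 comparisons. Points of both signs fill the whole span from 2500 to 4999 bp, the larger changes are in the comparisons with Vav KO, and 606 of the 1048 points of Tie2 KO against Vav KO lie below 0.

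The members made up unequal parts of the lists. For Tie2 KO against Tie2 WT they were 13.7% of higher and 31.0% of lower regions. For Vav KO against Tie2 WT the shares were 35.0% and 28.7%. For Tie2 KO against Vav KO they were 15.4% of higher and 38.8% of lower regions. The share of higher regions changed with the distance to the gene start in the direct comparison of the knockouts. It was 86.8% over gene starts, 69.4% within 500 bp upstream, 48.4% at 2000 to 2499 bp, and between 38.3% and 46.5% in the 500 bp bins of the members. For Tie2 KO against Tie2 WT it was 93.1% over gene starts and between 62.0% and 71.0% in those bins. For Vav KO against Tie2 WT it was 69.0% over gene starts and between 66.9% and 74.8% in those bins. Region width moved with place in the comparisons that have Tie2 KO first. The median width over gene starts was 1799 bp in Tie2 KO against Tie2 WT and 1599 bp in Tie2 KO against Vav KO, against 1099 to 1199 bp in the bins of the members. In Vav KO against Tie2 WT it was 1099 bp in both places. Among regions of the smallest width, 999 bp, the higher shares of gene starts and members were 76.7% and 60.7% in Tie2 KO against Tie2 WT, 63.0% and 71.5% in Vav KO against Tie2 WT, and 74.2% and 40.5% in Tie2 KO against Vav KO.

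**Figure D2:**
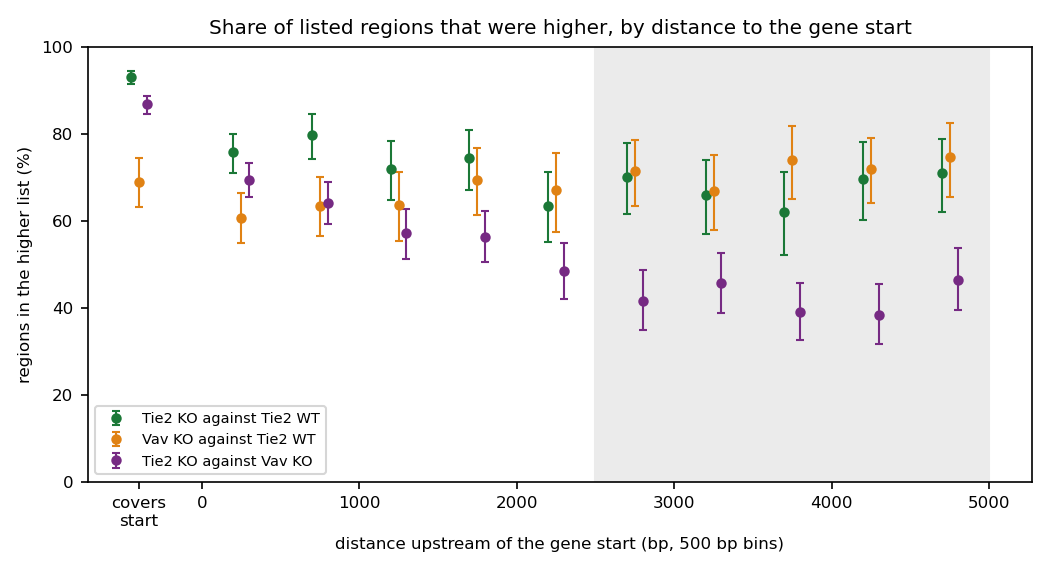
The share of listed regions that were higher (y axis, %) is plotted by distance upstream of the gene start (x axis, 500 bp bins, with regions over a start at the left) for the 3 comparisons, with exact 95% binomial intervals as bars and the span of the members shaded. The share of Tie2 KO against Vav KO goes from 86.8% over gene starts to 46.5% or lower in each shaded bin, while in Vav KO against Tie2 WT the shaded bins lie at 66.9% to 74.8%.

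Fold changes of members were larger in the comparisons with Vav KO. In the authors' deposited tables the median log2 fold change of higher members was 1.11 in Tie2 KO against Tie2 WT (all higher regions 1.02), 1.55 in Vav KO against Tie2 WT (1.35) and 1.35 in Tie2 KO against Vav KO (1.16). For lower members the medians were -0.91 (all lower regions -0.86), -1.46 (-1.29) and -1.22 (-1.12) in the same order. An absolute log2 fold change of 2 or more was reached by 18 higher and 2 lower members of Tie2 KO against Tie2 WT. It was reached by 93 and 33 members of Vav KO against Tie2 WT and by 63 and 70 members of Tie2 KO against Vav KO. The authors' adjusted p of members was at most 0.0422. The lists give no value per sample, so the spread between replicates cannot be shown, and that adjusted p is the error available for a single region.

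Genes of developmental transcription factors, which PRC2 is known to hold silent in most tissues, were paired with higher members in both comparisons that have Tie2 KO as the first group. Of 260 such genes, 39 were paired with a higher member and 0 with a lower one in Tie2 KO against Tie2 WT. Over all protein-coding RefSeq genes the shares paired with a higher and a lower member were 1.54% and 0.731%. The counts were 10 and 1 in Vav KO against Tie2 WT, beside 1.8% and 0.722% of all protein-coding genes. They were 37 and 1 in Tie2 KO against Vav KO, beside 1.67% and 2.42%. At any distance up to 5 kb, 182, 25 and 189 of the 260 genes were paired with a higher region and 0, 10 and 4 with a lower one. The shares of all protein-coding genes with any higher region were 11.5%, 5.29% and 11.1%, and with any lower region 2.51%, 2.59% and 6.35%.

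Hox genes set position along the body axis and sit in 4 clusters. Of 39 Hox genes, 10 were paired with a higher member in Tie2 KO against Tie2 WT (25.6%), 2 in Vav KO against Tie2 WT and 9 in Tie2 KO against Vav KO (23.1%), and 0 with a lower one in any of the 3. Against Tie2 WT, the authors' deposited table gave for Tie2 KO Hoxa11 2.08, Hoxc10 1.99, Hoxc8 1.67, Hoxb13 1.62 and Hoxd10 1.53, with Hoxb6 lowest at 0.78. Genes of all 4 clusters were thus among the higher members. Against Vav KO it gave Hoxc6 3.09, Hoxb13 2.35, Hoxd8 1.82 and Hoxa13 1.72, with Hoxa6 lowest at 0.86. The Hoxc6 region began 3013 bp upstream of the gene start and its value against Tie2 WT was 1.22. The 2 genes of Vav KO against Tie2 WT were Hoxd13 at 2.54, with a region 2509 bp upstream, and Hoxb9 at 1.08. Hox genes lie close together, so a region upstream of one can lie within its neighbour, as the Hoxc8 region did with Hoxc9.

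Homeobox, T-box, Pax, Sox and forkhead genes outside the Hox clusters numbered 157. A higher member was paired with 22 of them in Tie2 KO against Tie2 WT, 4 in Vav KO against Tie2 WT and 22 in Tie2 KO against Vav KO. These were 14.0%, 2.55% and 14.0%, beside 1.54%, 1.8% and 1.67% of all protein-coding genes, so the share in Vav KO was near that of all genes. A lower member was paired with 0, 1 and 0 (0%, 0.637% and 0%), beside 0.731%, 0.722% and 2.42%. Tbx3, which patterns limb and heart, had log2 fold changes of 2.34 against Tie2 WT and 1.72 against Vav KO in the authors' deposited tables. Gsx2, a homeobox gene of the ventral forebrain, had 2.25 and 1.52, and Mnx1, a motor neuron gene, had 1.85 against Tie2 WT. Irx2, an Iroquois homeobox gene, had 1.02 against Tie2 WT with an adjusted p of 0.00984 and 4.72 against Vav KO with an adjusted p of 4.3e-07. Other large values against Vav KO were 2.39 at En1, a midbrain patterning gene, 2.31 at Foxa1, an endoderm factor, and 2.11 at Cdx2, a caudal factor that acts upstream of Hox genes. Pax3, a neural crest and muscle precursor gene, and Irx3 each had 2 higher members in Tie2 KO against Tie2 WT, at 1.71 and 0.82 and at 1.07 and 0.82. Foxd3, a neural crest factor, had members of opposite direction, 0.92 in Tie2 KO and -1.87 in Vav KO, each against Tie2 WT. Those regions lay 4898 and 3298 bp upstream and did not overlap. Otx1 was paired with a higher member in all 3 comparisons, at 1.01, 1.26 and 0.97 in the authors' deposited tables. Its region in Vav KO against Tie2 WT, 3050 bp upstream, did not overlap those of the other comparisons, 4350 and 4450 bp upstream.

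Basic helix-loop-helix and zinc finger genes of development numbered 64, with 7, 4 and 6 paired with a higher member in the 3 comparisons. These were 10.9%, 6.25% and 9.38%, beside 1.54%, 1.8% and 1.67% of all protein-coding genes. A lower member was paired with 0, 0 and 1 (0%, 0% and 1.56%), beside 0.731%, 0.722% and 2.42%. Against Tie2 WT, Tie2 KO had Hand1, a heart and extraembryonic mesoderm factor, at 1.59, the neuronal gene Bhlhe22 at 1.55 and Gata4 at 1.41 in the authors' deposited table. Gata6, an endoderm and heart factor, was higher in both knockouts against Tie2 WT, at 1.21 and 1.22, and an overlapping region that was not a member was higher in Tie2 KO than in Vav KO, at 1.31. Against Vav KO the values were 3.05 at Tcf15, a paraxial mesoderm factor, 2.33 at the Notch effector Hes1 and 2.3 at Hand1. The lower gene was Scx, a tendon factor, at -1.03.

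Of the 260 developmental transcription factor genes above, 15.0%, 3.85% and 14.2% were paired with a higher member in the 3 comparisons. The shares of signalling genes are given next, and differences between the lists were not tested. Of 78 Wnt pathway genes, 38 were paired with a higher region somewhere within 5 kb in Tie2 KO against Tie2 WT, 33 of them over the gene start. A member was paired with 0 of the 78, beside 1.54% higher and 0.731% lower of all protein-coding genes. At such shares few of 78 genes would have a member, so no difference is read from the 0. In Vav KO against Tie2 WT 2.56% had a higher member, beside 1.8%. In Tie2 KO against Vav KO 2.56% had a lower one, beside 2.42%. The Wnt genes with a member in Vav KO against Tie2 WT were the receptor gene Fzd2 at 1.77 and the ligand gene Wnt3 at 0.81 in the authors' deposited table. For Tie2 KO against Vav KO they were Lgr6, a receptor for R-spondins, at -0.96 and the secreted inhibitor gene Dkk4 at -0.73. Of 92 genes of the BMP, TGF-beta, FGF, Hedgehog and Notch pathways, a higher member was paired with 3, 2 and 2 in the 3 comparisons. A lower one was paired with 0, 0 and 2. The higher shares were 3.26%, 2.17% and 2.17%, beside 1.54%, 1.8% and 1.67% of all protein-coding genes. The lower shares were 0%, 0% and 2.17%, beside 0.731%, 0.722% and 2.42%. The Notch ligand gene Dll4 had 0.9 in Tie2 KO against Tie2 WT and Dll1 had 2 members at 1.7 and 0.99 in Tie2 KO against Vav KO. The receptor gene Fgfr1 had 0.72 in Vav KO against Tie2 WT and -1.74 in Tie2 KO against Vav KO, and the inhibitory Smad7 had 1.8 in Vav KO against Tie2 WT.

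Of 49 erythroid genes, a higher member was paired with 2.04%, 4.08% and 0% in the 3 comparisons, beside 1.54%, 1.8% and 1.67% of all protein-coding genes, and a lower one with 0%, 0% and 2.04%, beside 0.731%, 0.722% and 2.42%. These are at most 2 genes each, so no difference from all genes is read from them. Trim58, a ubiquitin ligase of maturing red cells, was paired with a higher member in both knockouts, at 1.97 in Tie2 KO and 1.33 in Vav KO against Tie2 WT in the authors' deposited tables. Those regions did not overlap and lay 3864 and 2564 bp upstream. Tmod1, a gene of the red cell membrane skeleton, had 2 higher members in Vav KO, at 1.47 and 1.39. Ldb1, a partner of erythroid GATA1 complexes, was lower in Tie2 KO than in Vav KO at -1.36. The myeloid list of 56 genes had 0 members in either comparison with Tie2 WT. In Tie2 KO against Vav KO, 3 of its genes (5.36%) were paired with a lower one, beside 2.42% of all protein-coding genes. At any distance up to 5 kb, 10 of its genes had a higher region in that comparison and 6 a lower one. No direction of the myeloid list is therefore read from its few members. Among its lower members in Tie2 KO against Vav KO were those of the complement gene C1qc at -1.29 and the integrin gene Itgam at -0.92.

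Of 39 megakaryocyte and mast cell genes, Treml1, a receptor of platelet granules, was lower in both knockouts, at -1.61 in Tie2 KO and -2.1 in Vav KO against Tie2 WT in the authors' deposited tables. The regions overlapped, at a distance of 4515 bp in both, and their adjusted p was 1.33e-07 and 2.14e-05. The thrombin receptor gene F2rl2 was lower in Tie2 KO against either group, at -0.8 and -0.99. Against Vav KO the platelet adhesion gene Vwf had -1.53 and the platelet tubulin gene Tubb1 had -0.79. The one higher member of the list was at Tpsab1, a mast cell tryptase locus that the RefSeq table classes as a transcribed pseudogene, at 2.32 in Vav KO against Tie2 WT. Lower members were thus paired with 2, 1 and 3 of the 39 genes, beside 0.731%, 0.722% and 2.42% of all protein-coding genes.

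Of 34 progenitor genes, Prdm16, a regulator of blood stem cells, was higher in both knockouts at 1.67 and 1.07 against Tie2 WT in the authors' deposited tables. Meis1, a Hox cofactor of progenitors, was lower in Vav KO at -1.06, with an adjusted p of 0.008, and Spn, which encodes CD43, was higher there at 1.03. Ikzf2 was lower in Tie2 KO than in Vav KO at -0.97. Of 21 fetal programme genes, Igf2bp1, an RNA-binding partner of the LIN28 pathway, was higher in Vav KO than in Tie2 WT at 1.62, and Hmga1 was lower in Tie2 KO than in Vav KO at -0.64. Among 47 lymphoid genes, Ebf1 was higher in Tie2 KO against both groups, at 1.08 and 1.28, and Gata3 against Tie2 WT at 0.83, while Cd79b was lower against Tie2 WT at -0.61.

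Of 51 endothelial genes, 4 were paired with a higher member (7.84%, beside 1.54% of all protein-coding genes) and 1 with a lower one (1.96%, beside 0.731%) in Tie2 KO against Tie2 WT. The venous factor Nr2f2 had 1.25, the arterial Notch ligand Dll4 0.9, the junction gene Cdh5 0.84 and the lymphatic factor Prox1 0.7, while the adhesion gene Icam1 had -1.05 in the authors' deposited table. Against Vav KO, 1 was higher (1.96%, beside 1.67%) and 4 were lower (7.84%, beside 2.42%), and the difference between the comparisons was not tested. The lower genes were Lyve1 at -2.03, Vwf at -1.53, Angpt2 at -1.39 and Icam2 at -0.58. The higher one was the receptor gene Aplnr at 1.35, which was lower in Vav KO than in Tie2 WT at -1.06. At any distance up to 5 kb, 14 of the 51 genes had a higher region against Vav KO and 5 a lower one. These stand beside 11.1% and 6.35% of all protein-coding genes. Over gene starts the counts were 8 and 1, so the lower members do not stand for the whole list. Markers of other yolk sac cells (52 genes) were paired with higher members in 4, 2 and 5 cases (7.69%, 3.85% and 9.62%, beside 1.54%, 1.8% and 1.67% of all protein-coding genes). None had a lower member, beside 0.731%, 0.722% and 2.42%. Keratin genes of epithelium were among them, Krt8 at 1.25 in Tie2 KO against Tie2 WT, and Krt19 at 3.82 and Krt18 at 1.19 in Tie2 KO against Vav KO. The lists overlap, and these counts also hold Hand1, Gata6, Gata4, Wt1 and Foxa1, already counted above as developmental transcription factor genes. The marker counts are thus not separate from those above. The part of other yolk sac cells in the other results was not tested.

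Among 43 Polycomb and demethylase genes, the chromobox gene Cbx8 of PRC1 was higher in Tie2 KO against Tie2 WT, at 0.83 in the authors' deposited table. It was also higher against Vav KO, at 0.96, and Cbx7 was higher in Vav KO than in Tie2 WT, at 1.65. Of 13 cell cycle inhibitor genes, Cdkn1c was higher in Tie2 KO against Tie2 WT at 0.72. Cdkn2a, a known Polycomb target, had a lower member in Tie2 KO against Vav KO at -1.05, while a region over its start was higher in the same comparison at 1.09. No member was paired with Ezh2, Tek or Vav1.

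**Figure D3:**
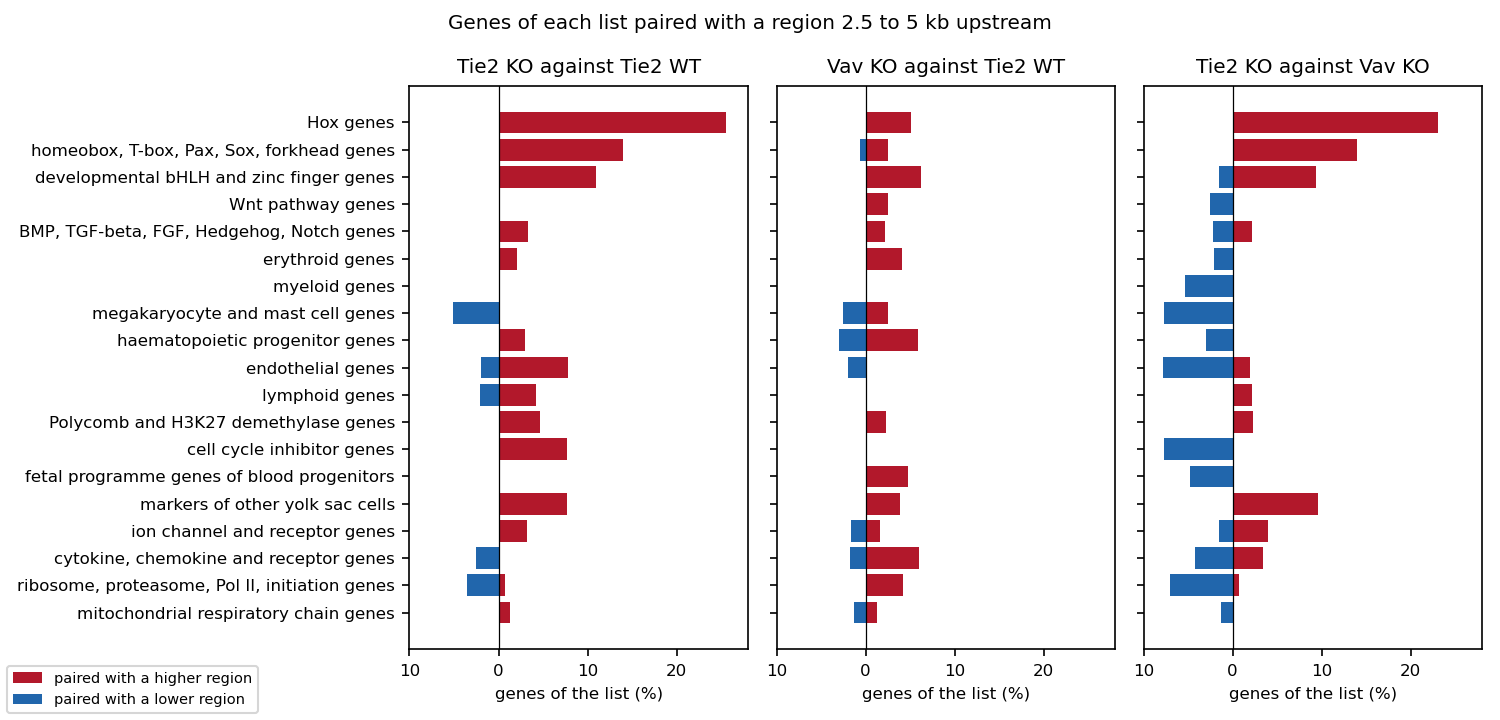
For each of 19 gene lists (rows) the bars give the share of its genes (%) paired with a higher member (red, to the right) or a lower member (blue, to the left) in the 3 comparisons. Hox genes reach 25.6% and 23.1% in the comparisons that have Tie2 KO first and 5.13% in Vav KO against Tie2 WT, and genes of ribosome, proteasome, polymerase and initiation lie at 3.5% lower, 4.2% higher and 6.99% lower from left to right.

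Genes of the ribosome, the proteasome, RNA polymerase II and the initiation of translation are needed by every cell. The few members paired with them were mostly lower in Tie2 KO and, against Tie2 WT, higher in Vav KO. Of 143 such genes, 5 were paired with a lower and 1 with a higher member in Tie2 KO against Tie2 WT. Rps15 had -0.87, Psmd4 -0.85 and Rpl38 1.54 in the authors' deposited table. The Rps15 region overlapped Dazap1 and the Rpl38 region overlapped Gm11689. Vav KO against Tie2 WT had 6 paired with a higher member and 0 with a lower one, led by Eif1 at 1.95, Rps21 at 1.75 and Rpl5 at 1.72. Tie2 KO against Vav KO had 10 lower and 1 higher, led by Polr2c at -1.78, Eif1 at -1.74 and Rpl26 at -1.31. At any distance up to 5 kb, 4, 10 and 4 of the 143 genes had a higher region and 14, 4 and 29 a lower one. The background shares of higher and lower members stand above, and the comparisons share the Tie2 WT, Vav KO and Tie2 KO samples pairwise, so these counts are not independent. Of 75 genes of the respiratory chain, Ndufa9 had 2.54 in Tie2 KO and Ndufa12 had 2.41 and Ndufa13 -2.6 in Vav KO, each against Tie2 WT, and Ndufs3 had -1.76 in Tie2 KO against Vav KO. The Ndufa9 region lay in Akap3, the Ndufa12 region in Nr2c1 and the Ndufs3 region in Kbtbd4.

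Of 117 cytokine, chemokine and receptor genes, a higher member was paired with 0, 7 and 4 in the 3 comparisons (0%, 5.98% and 3.42%) and a lower one with 3, 2 and 5 (2.56%, 1.71% and 4.27%). The shares of all protein-coding genes were 1.54%, 1.8% and 1.67% higher and 0.731%, 0.722% and 2.42% lower. The chemokine gene Ccl6 had 3.77 in Vav KO against Tie2 WT and -2.25 in Tie2 KO against Vav KO, from the same region 4214 bp upstream, in the authors' deposited tables. Il27 had 2.04 and -2.06 and Osm, the oncostatin M gene, 1.54 and -1.21 in the same order. Csf3, the gene of granulocyte colony-stimulating factor, had 1.32 and the chemokine receptor gene Cxcr4 1.8 in Vav KO against Tie2 WT, where Il16 had -3.36 and Il3 -1.25. The higher genes of Tie2 KO against Vav KO were Il34 at 1.46, Ifnar1 at 0.99, Ccl17 at 0.98 and Cxcl16 at 0.75. The lower genes of Tie2 KO against Tie2 WT were Cxcr3 at -0.98, Il15 at -0.91 and Tnfsf14 at -0.76. Of 126 ion channel and neurotransmitter receptor genes, a higher member was paired with 4, 2 and 5 in the 3 comparisons (3.17%, 1.59% and 3.97%) and a lower one with 0, 2 and 2 (0%, 1.59% and 1.59%), beside the same shares of all protein-coding genes. The glutamate receptor gene Grik4 had -3.48 in Vav KO against Tie2 WT and 3.5 in Tie2 KO against Vav KO.

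Members at microRNA genes numbered 30 in Tie2 KO against Tie2 WT (16 higher, 14 lower), 34 in Vav KO against Tie2 WT (23 higher, 11 lower) and 47 in Tie2 KO against Vav KO (21 higher, 26 lower). They were 5.02%, 5.3% and 4.48% of the members, beside 2.98%, 4.43% and 3.5% of all lines of the lists. Mir9-3, one of the genes of the neural microRNA miR-9, had the largest fold change of any member in Tie2 KO against Tie2 WT, 2.77 in the authors' deposited table, inside its host gene Mir9-3hg. Mir9-2 had 1.74 in Tie2 KO against Vav KO. Mir196b, which lies among the Hoxa genes, had 1.75 in Tie2 KO against Vav KO and -1.25 in Vav KO against Tie2 WT. Mir7661 had 4.63 in Vav KO against Tie2 WT and -1.89 in Tie2 KO against Vav KO from the same region, which lay in the calcium channel gene Itpr1. Mir193b had 2 members of opposite direction in Vav KO, 1.51 at 4422 bp and -1.38 at 2522 bp. Mir129-2 was higher in Tie2 KO against both groups, at 1.59 and 1.99. Among microRNAs known in blood cells, Mir21a had 2.04 and Mirlet7g -1.16 in Tie2 KO against Vav KO. Long noncoding RNA genes had 44 higher and 15 lower members, 36 and 11, and 48 and 39 in the 3 comparisons. They were 9.87%, 7.33% and 8.3% of the members, near their 8.74%, 8.08% and 8.35% of all lines.

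Most members of any fold change were at genes outside the lists, with 73 of 598, 48 of 641 and 93 of 1048 at listed genes in the 3 comparisons. Single regions with the largest fold changes are given next. For Tie2 KO against Tie2 WT the authors' deposited table had Nbea, a neuronal trafficking gene, at 2.45 and the triglyceride synthesis gene Dgat1 at 2.31, whose region lay in the neural factor gene Scrt1. Its lowest members were Eef1g at -2.56, a translation elongation gene whose region lay in Tut1, Kansl2 at -2.26, Cmtm7 at -1.93 and the natural killer receptor gene Klra3 at -1.9. Among the highest of Vav KO against Tie2 WT were Sumf1, an enzyme that activates sulfatases, at 5.3 and 2518 bp upstream, Mir7661, Ccl6 and the odorant receptor gene Olfr1368 at 3.61. The lowest were 6430584L05Rik at -3.74, the kidney phosphate transporter gene Slc34a1 at -3.53 and Ptprcap, a partner of CD45, at -3.49. The highest of Tie2 KO against Vav KO were the adaptor gene Dok3 at 5.17, whose region lay in Ddx41, Irx2 and Ubl5 at 3.88, whose region lay in Fbxl12. The lowest were Chst2 at -4.55, Fam185a at -4.39, the succinate receptor gene Sucnr1 at -3.73 and Ythdf3, a reader of methylated RNA, at -3.51. The values of Fam185a, Sucnr1 and Ythdf3 in Vav KO against Tie2 WT, from overlapping regions, were 2.18, 2.3 and 1.94.

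Of the 1806 genes, 1372 had a member in 1 comparison, 415 in 2 and 19 in all 3. Since each pair of comparisons shares a group of samples, the values are given side by side and no agreement is read from them. At 10 of the 19 genes the members of all 3 comparisons overlapped. Arhgef10 had 2.21 in Tie2 KO against Tie2 WT, 1.57 in Vav KO against Tie2 WT and 1.3 in Tie2 KO against Vav KO in the authors' deposited tables. Spesp1 had 1.03, 1.03 and 1.51, and Stac2 had 1.59, 1.67 and 0.7, in the same order. Spesp1 and Stac2 were thus listed as higher in all 3 comparisons. Their values against Tie2 WT were, however, no larger in Tie2 KO than in Vav KO, so the order of the knockouts is not settled. Eef1g had -2.56, -3.05 and -1.58, Trim72 -0.76, -1.1 and -0.71, and Zscan18 -0.67, -2.24 and 1.41. AI847159 had 1.12, 1.46 and -0.85 and Nudt3 had 0.7, 1.17 and -0.69. The GTP-binding protein gene Drg2 and the Ras regulator gene Rasal2 were lower in Tie2 KO and higher in Vav KO, each against Tie2 WT. Drg2 had -1.82, 1.52 and -2.57, and Rasal2 had -1.8, 1.35 and -1.71.

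**Figure D4:**
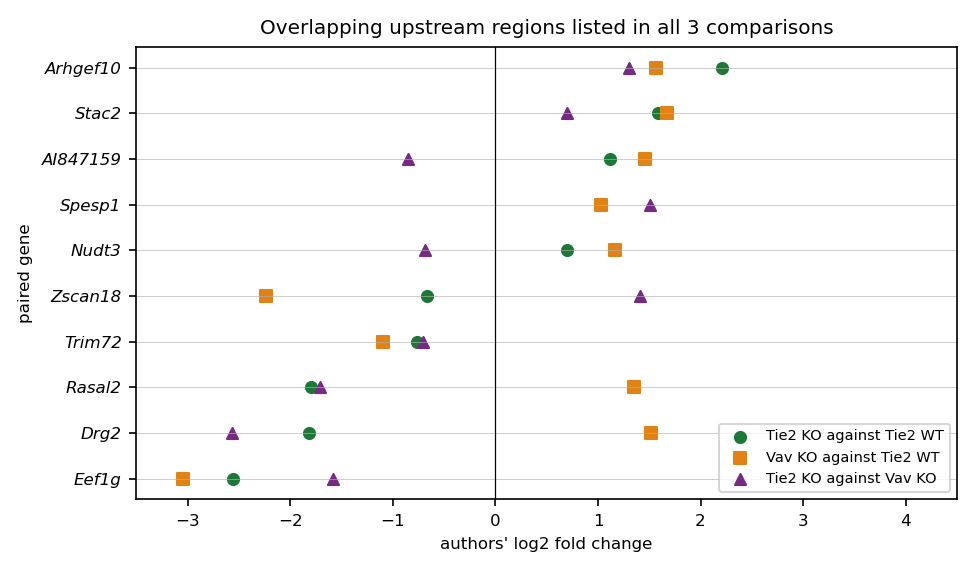
The authors' log2 fold change (x axis) of the 10 sets of overlapping members listed in all 3 comparisons, by paired gene (rows), with 1 marker per comparison. The markers of Tie2 KO and Vav KO against Tie2 WT lie on the same side of 0 for all genes except Drg2 and Rasal2.

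Other regions of the same gene were listed for some members. These were listed regions that were not members, because they lay over the start or nearer to it, were too wide or had several genes. In Tie2 KO against Tie2 WT, 159 of 589 genes had such a region, 99 (16.8%) over the start. At 7 of the 159 genes (4.4%) a region of opposite direction was present. Vav KO against Tie2 WT had one at 47 of 637 genes (7.38%), and an opposite one at 19 of the 47 (40.4%). Tie2 KO against Vav KO had one at 222 of 1033 genes (21.5%), and an opposite one at 55 of the 222 (24.8%). At 42 of those 55 genes the member was lower and the other region higher, and at 13 the reverse was found. In that comparison 42.2% of members, 61.2% of nearer upstream regions and 86.8% of regions over gene starts were higher. In Vav KO against Tie2 WT the same shares were 71.8%, 64.0% and 69.0%. How many opposite pairs unrelated directions would give was not computed, so nothing about the genes is read from these counts. Examples in Tie2 KO against Vav KO from the authors' deposited table were the sulfotransferase gene Chst2, with -4.55 upstream and 0.59 over the start, Sertm1 with -1.54 and 2.09, and the collagen genes Col8a2 and Col5a1, each with -1.8 upstream and 0.8 and 0.71 over the start. The chromatin remodeller gene Chd5 in Tie2 KO against Tie2 WT had -1.04 upstream and 1.19 over the start. Prlh in Vav KO against Tie2 WT had -1.69 and 1.86 and Rasip1, a vascular gene, had -1.39 and 1.26.

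**Figure D5:**
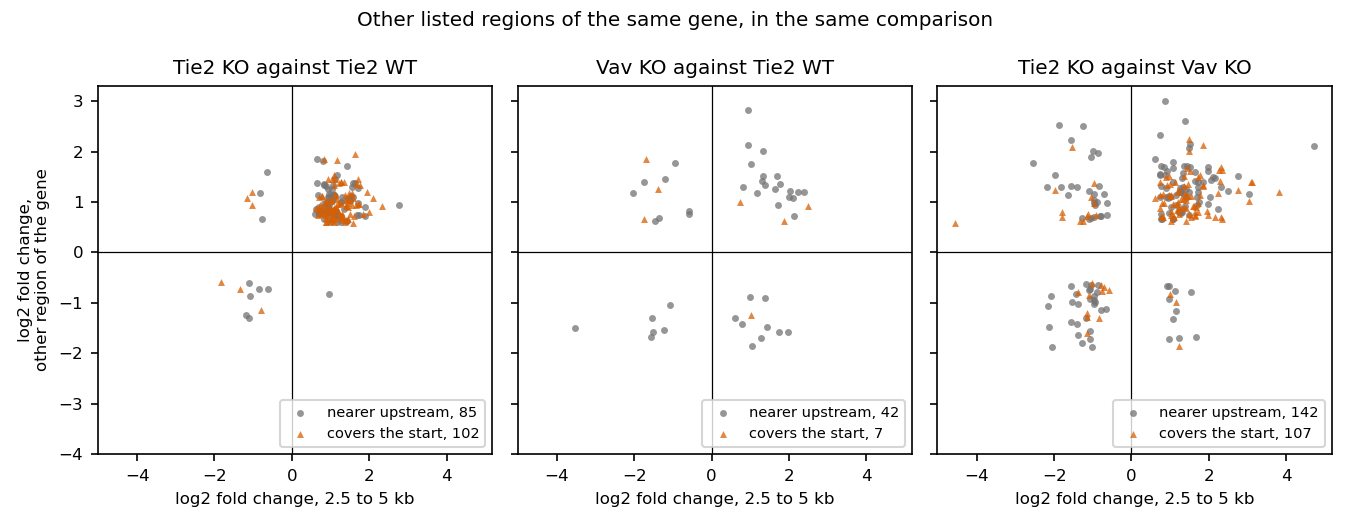
Each point sets the authors' log2 fold change of a member (x axis) against that of another listed region of the same gene in the same comparison (y axis). Triangles are regions over the gene start. Circles are other upstream regions that were not members, labelled as nearer upstream although some may lie as far as the members. Most points are above 0 on both axes in Tie2 KO against Tie2 WT, where 7 genes have opposite directions, and points lie on either side of both axes in Tie2 KO against Vav KO, where 55 genes do.

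A gene had 2 members in 9, 4 and 15 cases in the 3 comparisons, and they differed in direction at 0, 2 and 4 of these genes. Besides Mir193b, the pair of opposite sign in Vav KO against Tie2 WT was at the phospholipase gene Plaat3, with -0.95 and 1.32 in the authors' deposited table. Tie2 KO against Vav KO had such pairs at AI661453 (1.57 and -0.65), the thromboxane synthase gene Tbxas1 (-1.52 and 1.36), Cdk5rap1 (-1.4 and 1.32) and Spsb3 (1.4 and -0.86). The Tbxas1 regions overlapped each other while being listed in opposite directions. Pairs of the same sign included Foxk2, a forkhead factor, at -2.44 and -2.05 and Pou3f3, a neural POU factor, at 2.23 and 1.28.

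At the edges of the rule, regions of 2499 bp distance that were left out were those of Fth1 at -0.98, Nkx2-2 at 1.28 and Il13 at 0.95 in Tie2 KO against Tie2 WT and Ttc39a at -0.85 in Tie2 KO against Vav KO in the authors' deposited tables. The nearest members were those of Nctc1 at 1.59, Dnmbp at 1.65 and Ccin at 1.33, all at 2503 bp. The farthest was that of Vash1 at 4999 bp and 1.16. The widest members, of 2899 bp, were those of 1810058I24Rik at -1.36, Plut at 1.86 and Nfam1 at 0.72, and the narrowest regions left out by the width limit, 100 bp wider, were those of Chrnd at 1.01 and Gm11729 at 1.08.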

How the data were processed

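ATAC-seq libraries from 500 sorted progenitors each were amplified for 14 PCR cycles, per the labels' protocols. Per the submitters' processing notes the build was mm10 and the tools were MACS2 2.1.2, HOMER 4.10, SAMtools 1.3.1, Bowtie2, Picard and FastQC, with no roles stated. Read shifting for Tn5, duplicate handling, scaling and the test behind the calls were not given in the sources used here.

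All 6 deposited lists (higher and lower regions for 3 comparisons, 10679 lines) hold, per the file headers, the authors' log2 fold change and adjusted p-value of each region, and other measures in bp, the width and the distance to the gene start. The groups in the list names were read by their initials. Tested on the lists, absolute log2 fold changes were 0.58 or more, adjusted p-values 0.0479 or less and distances under 5 kb. Depth per sample is unknown, and no value per sample, hence no replicate spread, could be computed.

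Lists were joined and regions selected with Python 3.11.15 and pandas 2.3.3, and figures drawn with matplotlib 3.10.9. Regions overlapped when they shared 1 bp or more. Intervals are exact 95% binomial intervals (SciPy 1.17.1). Gene identifiers were matched to RefSeq on GRCm38.p6, with 2284 of 2287 members matched, and 3972 (80.4%) of 4942 paired genes with a RefSeq promoter had the same start in both sources. Sequences are RefSeq's. Selection and overlap steps were tested on simulated data. No test was run, since the authors' calls chose the members. The members and the 19 gene lists were chosen with earlier results of these data known.

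Named genes follow a rule. It takes the 8 members with the largest change per direction and comparison, up to 5 genes with 2 members, and up to 3 members per gene list. It also takes genes in all 3 comparisons or with opposite directions, the regions at the edges of the selection, and Ezh2, Tek and Vav1. Further list members and microRNAs were named after their values were seen. Alternatives tried were other distance and width limits, regions with several genes, and stricter fold change and adjusted p limits. A few genes that the rule names are not reported here.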

Additional observations from a re-analysis of the deposited data

Results flagged for a closer look

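The regions upstream of Drg2 and Rasal2 differed between the knockouts. Against the same Tie2 WT samples, each was lower in Tie2 KO and higher in Vav KO, and the authors' direct comparison of the knockouts listed both as lower, at log2 fold changes of -2.57 for Drg2 and -1.71 for Rasal2 in the authors' deposited table. The authors' adjusted p was 1.24e-05 and 3.28e-05. The regions of the 3 comparisons shared 199 bp at Drg2 and 399 bp at Rasal2. Both lay in a noncoding RNA gene, Gm12267 at Drg2 and 2810025M15Rik at Rasal2. A region over the start of Drg2 was also lower in Tie2 KO than in Tie2 WT, at -0.58 in the authors' deposited table.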

How the results depend on the processing

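No paired analysis was possible because the lists hold no value per sample. For the same reason no replicate could be left out. Of 84 recomputed values, 76 stayed within their limits. The limit was the exact interval of the main value for shares, the standard deviation over members for medians and a fixed ratio for counts. Counts have no direction, and medians were taken within higher or lower members, so neither could change direction. No higher share moved from a majority to a minority or back. With only regions of the smallest width, members numbered 247 in Tie2 KO against Tie2 WT, 270 in Vav KO against Tie2 WT and 390 in Tie2 KO against Vav KO. The higher share of Tie2 KO against Tie2 WT was then 60.7%, and 77.7% at an absolute log2 fold change of 1 or more. In Tie2 KO against Vav KO, developmental transcription factor genes with a higher member numbered 24 from 3000 bp upwards. Those with a lower member numbered 2 from 2000 bp upwards and 2 with regions of several genes included. Fewer regions enter under the stricter limits by construction. Depth, scaling and the regions that were tested but not listed are unknown here, so an unlisted region cannot be read as unchanged.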

Other observations

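Where members overlapped in all 3 comparisons, the direct log2 fold change of Tie2 KO against Vav KO can be set beside the difference of the values of Tie2 KO and Vav KO against Tie2 WT. Among the 10 sets the signs were opposite in 3, the gap exceeded 1 in 4, and the median absolute gap was 0.775. At Eef1g the difference was 0.49 and the direct value -1.58, a gap of -2.07. At Trim72 they were 0.34 and -0.71, and at Stac2 -0.08 and 0.70, while at Zscan18 they were 1.57 and 1.41. For 126 other overlapping sets of the lists the signs were opposite in 21, the gap exceeded 1 in 55, and the median absolute gap was 0.91. The regions of a set shared only part of their length, 199 bp at Eef1g and 299 bp at Trim72, and how libraries were scaled in each comparison was not given in the sources used here.

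On chromosome 19 Tie2 KO against Tie2 WT had 8 higher and 14 lower members, and on the X chromosome 4 and 6, beside 406 and 192 over all chromosomes. On the X chromosome Vav KO against Tie2 WT had 4 higher and 0 lower members, beside 460 and 181 over all chromosomes. These chromosomes were picked after the values of all were seen.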
